A study of Mus musculus with 12 samples.

Results

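A set of 10 genes for neuropeptides and markers of inhibitory interneurons was followed through the poly(A) RNA sequencing of mouse ischemic hemispheres. They were the rows of the deposited count table named Sst, Npy, Vip, Cck, Pvalb, Crh, Pdyn, Nts, Cort and Adcyap1, 10 of the 39756 genes listed, and all 10 had enough counts to be tested. The 12 mice were male, of genotype C57BL/6J, 9 to 10 weeks old by the study's methods, and fell into 3 groups of 4. Sham mice had the operation without the occlusion and received saline. In the Vehicle group, which also received saline, the middle cerebral artery that feeds the striatum and the lateral cortex was closed with a filament that was later withdrawn (tMCAO), so that ischemia was followed by reperfusion (I/R). LJP mice underwent tMCAO and were given Laminaria japonica polysaccharide (LJP), a brown seaweed polysaccharide, by mouth before the operation and after it. The genotype was the same in every group. After comparing doses the study went on with the middle one, but its sequencing section names neither the LJP dose nor the interval after reperfusion of the sequenced mice, and the labels put all libraries in a single batch.

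Neuropeptides are made as long precursors, cut by prohormone convertases, packed in dense-core vesicles and released during strong activity to act on G protein-coupled receptors. In the forebrain many of them mark classes of neurons that release GABA. Sst marks interneurons that contact dendrites, Vip those that mostly inhibit other interneurons, and Cck a class of basket cells, although Cck is also made by many pyramidal cells. Pvalb is no peptide: it encodes parvalbumin, a calcium-binding protein of fast-spiking basket and chandelier cells. Pdyn and Nts are made in part by the medium spiny neurons of the striatum, which lies in the core of the territory of the occluded artery.

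Several of these genes have promoters that answer to cAMP and calcium, and the Sst promoter holds the classic cAMP response element. RefSeq promoter windows of build GRCm38.p6, from 250 bases before to 50 after a start, were therefore read for the full element TGACGTCA and for its core, TGACG on either strand, which the full element contains. Of all 32851 windows, 1.79% held the full element and 20.81% the core. Among the 9 members with a window, Sst had the full element and 6 had at least the core, while Npy, Pvalb and Pdyn had neither; Crh had no window. The 30 bases around each match are shown 5′ to 3′ on the gene's strand, because these letters are shared by members whose levels are followed separately below, with the matched letters in capitals.
Sst, chr16:23890874-23890903, minus strand: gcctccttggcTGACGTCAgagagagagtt
Cck, chr9:121495725-121495754, minus strand: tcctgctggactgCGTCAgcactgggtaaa
Vip, chr10:5639126-5639155, plus strand: gggatcactactgTGACGtctttcggggag
Adcyap1, chr17:93198913-93198942, plus strand: gggactaggatgcTGACGtcttttactgat
Nts, chr10:102490568-102490597, minus strand: aattagggaagatCGTCActttccatcaag
Cort, chr4:149126765-149126794, minus strand: gctccggcttgtgCGTCAccgcgtgagtgt

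The first matched letter stood 48 bases before the start used for the window in Sst, 47 in Cck, 79 in Vip, 91 in Adcyap1, 166 in Nts and 18 in Cort. For Sst and Adcyap1 the matches lie within the gene spans given below, since those spans begin further upstream than the starts used for the windows. The other 4 lie outside their spans. A match describes letters and says nothing about whether the site is used.

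Total counts lay between 17960353 and 22216315 a mouse, so that 3 counts, the limit that a count of 0 allows, stood for 0.135 to 0.167 CPM (counts scaled to the TMM-normalized library size); such limits cover counting error only. The mean correlation of log2 CPM with the other mice of the same group was 0.989 to 0.991 for Sham, 0.985 to 0.987 for LJP and 0.951 to 0.969 for Vehicle. Vehicle mouse 2 had the lowest. Its summed level of 4 endothelial markers was 1239 CPM, against 234.5 to 598 in the other Vehicle mice, 158 to 172 in Sham and 154 to 214 in LJP. Its summed level of 11 markers of medium spiny neurons was 365 CPM, against 977 to 1380 in the other Vehicle mice, 3280 to 3848 in Sham and 1266 to 2227 in LJP. The part of these differences in the levels below was not tested, and the members' fold changes that it moved most are given with and without it. In a bulk hemisphere, fewer cells of a type and less RNA in each cell cannot be told apart.

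Levels of different genes were compared per kilobase of gene model. In Sham, Sst (193 CPM per kb) and Cck (190.1) stood highest and their ranges overlapped. Npy followed at 79.0 CPM per kb, apart from its neighbours on either side. Pvalb (35.4) and Pdyn (28.7) overlapped, Vip stood alone at 9.39, and Nts (6.42) overlapped with Cort (5.04), and Cort with Crh (4.46). Adcyap1, the gene of the peptide PACAP, was lowest at 1.86 CPM per kb, apart from Crh. In LJP the order began with Cck and Sst and ended with Crh, Nts and Adcyap1, and in Vehicle most neighbours overlapped, the step from Npy to Pvalb being the exception.

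**Figure D1:**
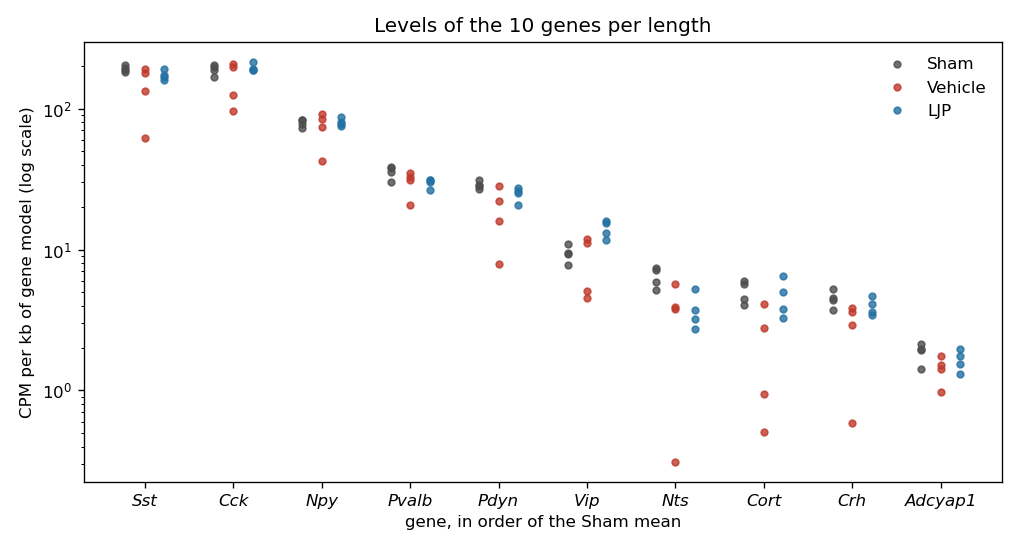
CPM per kilobase of gene model on a log axis for the 10 genes, 1 point per mouse, coloured by group and ordered by the Sham mean. The points of a gene lie close together in Sham and LJP, while in Vehicle the lowest points of Nts, Cort and Crh fall far below the others.

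The first question was whether the hemisphere after I/R differed from Sham. At an edgeR adjusted p below 0.05 the test called 39.9% of the 17558 genes tested, 17.3% as lower and 22.7% as higher in Vehicle. None of the 10 members was called, in either direction. At an unadjusted p below 0.05 there were 2, Pdyn and Cort, where the share of all genes was 49.9%, and DESeq2 called 1, Cort, and 36.4% of all genes it tested. All 10 fitted log2 fold changes were negative, with a median of -0.42 beside 0.00 over all genes tested, and -0.34 without Vehicle mouse 2. In no member did all 4 Vehicle mice lie on the same side of the Sham range, as they did in 39.5% of all genes. Each member had at least 1 Vehicle mouse at or above the lowest Sham level.

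**Figure D2:**
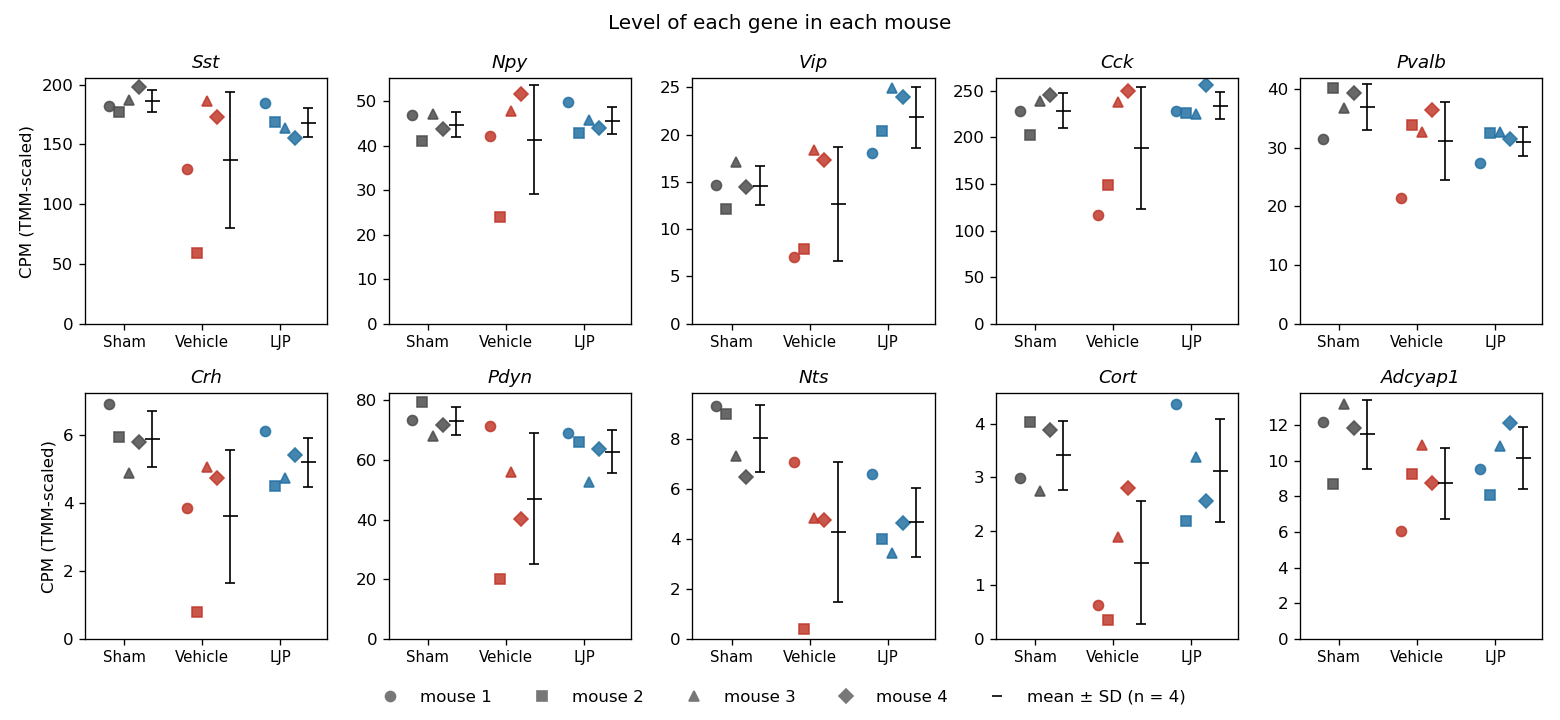
TMM-scaled CPM of each gene in each mouse, with the axis from 0; symbols mark the mouse number within a group (numbers do not link mice across groups) and the bar gives the mean ± SD of 4 mice. In Vehicle, mouse 1 (circle) is lowest for Vip, Cck, Pvalb and Adcyap1 and mouse 2 (square) for Sst, Npy, Crh, Pdyn, Nts and Cort.

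Sst, the somatostatin gene (chromosome 16, 23889573 to 23891342, minus strand; GRCm38 as in the count table, here and below), was at 182, 177, 187 and 198 CPM in the 4 Sham mice. The 4 Vehicle mice had 129.6, 59.5, 186 and 173 CPM. Mouse 3 sat within the Sham range, mouse 4 just under it, and mice 1 and 2 clearly below. The log2 fold change, given with its standard error (SE), was -0.44 (SE 0.25, edgeR adjusted p = 0.172), and -0.20 without Vehicle mouse 2.

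Cort (chromosome 4, 149125034 to 149126763, minus strand) encodes cortistatin, a peptide of cortical interneurons that binds the somatostatin receptors. It gave 3.00, 4.03, 2.74 and 3.89 CPM in Sham and 0.635, 0.344, 1.88 and 2.80 CPM in Vehicle, where the counts behind the values were 14, 8, 35 and 52. Mouse 4 alone reached the Sham range. Cort had the most negative fold change of the members, -1.29 (SE 0.49, edgeR adjusted p = 0.0511). The adjusted p lay between 0.00847 and 0.119 over the alternatives run and passed with DESeq2 (0.0228), without Vehicle mouse 3 (0.0435) and without Vehicle mouse 4 (0.00847). Without Vehicle mouse 2 the fold change was -0.97 (adjusted p = 0.0760). Sst and Cort did not keep step: the ratio of their CPM was 44.0 to 68.4 in Sham, 204 and 173 in Vehicle mice 1 and 2, and 99.0 and 61.8 in Vehicle mice 3 and 4.

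Npy (chromosome 6, 49822710 to 49829507, plus strand), whose peptide is made by part of the Sst interneurons among others, was at 41.0 to 47.2 CPM in Sham. Its Vehicle mice had 42.2, 23.9, 47.8 and 51.6 CPM. Vehicle mouse 4 was the highest of all 12 mice, and only Vehicle mouse 2 was below Sham. The fold change of -0.11 (SE 0.18, edgeR adjusted p = 0.634) turned to 0.07 without that mouse. Per unit of Sst, Npy stood at 0.221 to 0.258 in Sham and at 0.325, 0.402, 0.256 and 0.298 in the Vehicle mice.

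Vip (chromosome 10, 5639193 to 5647617, plus strand), the gene of vasoactive intestinal peptide, had 14.7, 12.2, 17.2 and 14.5 CPM in Sham. Vehicle mice 1 and 2 had 7.08 and 7.95 CPM, and mice 3 and 4 had 18.4 and 17.4. The group therefore held mice on either side of the Sham range and none inside it. It changed by a log2 value of -0.21 (SE 0.28, edgeR adjusted p = 0.572), and -0.01 without Vehicle mouse 1.

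Cck (chromosome 9, 121489824 to 121495694, minus strand), the cholecystokinin gene, showed the same division of mice. Sham lay between 203 and 246 CPM, Vehicle mice 1 and 2 had 117 and 149, and mice 3 and 4 had 238 and 250.1. Its fold change was -0.28 (SE 0.19, edgeR adjusted p = 0.266), or -0.11 without mouse 1. The ratio of Cck to Vip, 13.9 to 17.0 in Sham and 12.9 to 18.8 in Vehicle, moved less than either gene. The gene Gm38661 overlaps 4037 bases of Cck on the opposite strand with 11 to 59 counts a mouse, and the library kit does not mark strand.

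Pvalb (chromosome 15, 78191112 to 78206400, minus strand) had 31.6, 40.2, 36.8 and 39.2 CPM in Sham and 21.5, 33.9, 32.7 and 36.4 CPM in Vehicle. Only mouse 1 fell below Sham, and mouse 2, in which Sst was at 31.9% of its Sham mean, held 91.7% of its Pvalb. The fold change was -0.25 (SE 0.14, edgeR adjusted p = 0.183), and -0.11 without Vehicle mouse 1.

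Adcyap1 (chromosome 17, 93198245 to 93206541, plus strand), made mainly by excitatory neurons, gave 12.2, 8.72, 13.2 and 11.9 CPM in Sham and 6.04, 9.28, 10.9 and 8.78 in Vehicle. Here too mouse 1 was the only one below the Sham range, and no Vehicle mouse was above it. Its fitted log2 fold change was -0.40 (SE 0.19, edgeR adjusted p = 0.118). It came to -0.25 without Vehicle mouse 1, and passed without Vehicle mouse 3 (-0.52, adjusted p = 0.0490).

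Pdyn (chromosome 2, 129686549 to 129699938, minus strand), the precursor of the dynorphins, was at 73.5, 79.4, 68.0 and 71.8 CPM in Sham. Vehicle had 71.5, 20.1, 55.9 and 40.4 CPM. Mouse 1 was at the Sham level and the other 3 were below it, mouse 2 by the most. The log2 fold change was -0.64 (SE 0.27, edgeR adjusted p = 0.0772), -0.92 with an adjusted p of 0.0169 without Vehicle mouse 1, and -0.39 without mouse 2.

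Nts (chromosome 10, 102481756 to 102490418, minus strand), the neurotensin gene, had 9.29, 8.99, 7.29 and 6.48 CPM in Sham. The Vehicle values were 7.08, 0.387, 4.84 and 4.74, from 156, 9, 90 and 88 counts. Mouse 1 again lay within the Sham range and the rest below. The log2 fold change of -0.91 had a SE of 0.52 (edgeR adjusted p = 0.174) and became -0.53 without mouse 2.

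Crh (chromosome 3, 19693401 to 19695396, minus strand) encodes corticotropin-releasing hormone, which cortical interneurons make as well as the hypothalamus. It stood at 6.92, 5.94, 4.88 and 5.80 CPM in Sham and 3.86, 0.773, 5.06 and 4.74 CPM in Vehicle, and mouse 3 was inside the Sham range. The fold change was -0.71 (SE 0.39, edgeR adjusted p = 0.160), and -0.38 without mouse 2. The gene Gm42189 overlaps 1124 bases of Crh on the opposite strand, with 5 to 35 counts a mouse against 18 to 135 for Crh.

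The Vehicle mice therefore differed from one another in which members were low. Mouse 1 was below the Sham range in 7 members and mouse 2 in 8, where 39.4% and 42% of all tested genes were; neither was above it in any member, where 40.8% and 42.5% of all tested genes were. In mouse 1, Cort was at 18.6% of its Sham mean, Vip at 48.5%, Cck at 51.0%, Adcyap1 at 52.5% and Pvalb at 58.1%, while Npy (94.2%) and Pdyn (97.7%) were near it. In mouse 2, Nts was at 4.83%, Cort at 10.1%, Crh at 13.1%, Pdyn at 27.4% and Sst at 31.9%, while Adcyap1 (80.8%) and Pvalb (91.7%) were least reduced. Mouse 3 was below Sham in 3 members (Cort, Nts and Pdyn) and above in 2 (Npy and Vip), and mouse 4 was below in 4 (Sst, Crh, Nts and Pdyn) and above in 3 (Npy, Vip and Cck). These counts were near the shares of all tested genes, 33% below and 33.9% above in mouse 3 and 34.4% and 34.1% in mouse 4. The coefficient of variation showed the same spread, from 4.83% to 18.8% over the members in Sham and from 21.2% to 80.5% in Vehicle.

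**Figure D3:**
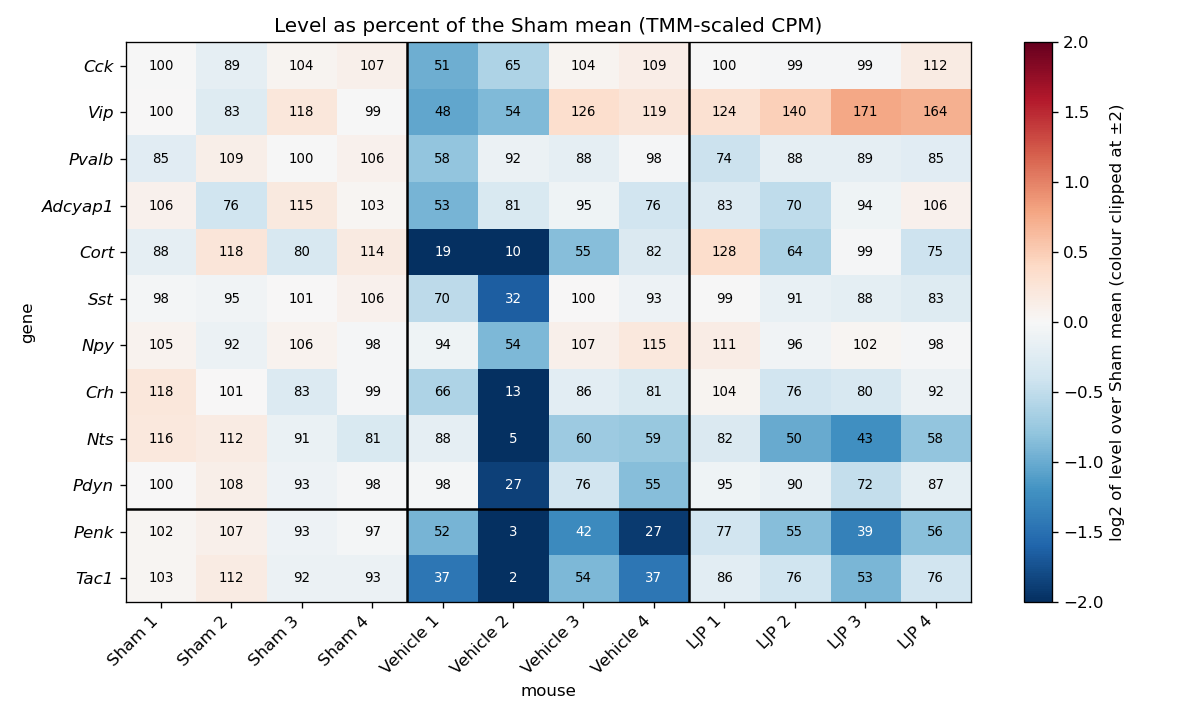
Level of each gene in each mouse as a percent of the Sham mean, with the log2 ratio as colour (clipped at ±2); the 10 members are above the horizontal line, and the striatal peptide precursors Penk and Tac1 below it. Vehicle mouse 1 is at 18.6% to 58.1% in the upper rows (Cck to Cort), and at 69.5% in Sst and 65.5% in Crh. Vehicle mouse 2 is at 4.83% to 53.5% in the lower rows (Cort to Pdyn), and at 65.25% in Cck and 54.4% in Vip. Vip is above 100% in all 4 LJP mice.

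The other neuropeptide precursors gave a reference for these levels. Of 21 listed, 15 were tested, 3 rose (Nmb, Tac2 and Prok2) and 2 fell in Vehicle, beside 22.7% and 17.3% of all genes, with a median log2 fold change of 0.08, which became 0.31 without Vehicle mouse 2. Without single mice 0 to 4 rose, none without Sham mouse 3 or 4 and 1 without Sham mouse 1 or Vehicle mouse 3, and 0 to 3 fell. Nmb missed the threshold without Sham mouse 3 or 4 or Vehicle mouse 2 or 3 (adjusted p 0.0603 to 0.0820) and in the fit of Sham and Vehicle alone (0.0561). The 2 that fell were Penk, the enkephalin precursor, and Tac1, the substance P precursor, which mark the indirect and the direct pathway neurons of the striatum. Penk was at 529, 555, 483 and 502 CPM in Sham and at 271, 14.7, 215 and 138 in Vehicle, with no overlap (log2 fold change -1.70, SE 0.56, edgeR adjusted p = 0.0294). Tac1 changed by -1.63 (SE 0.54, edgeR adjusted p = 0.0298). Neither call rested on Vehicle mouse 2: without it the adjusted p-values were 0.000769 and 0.000193. Penk missed the threshold without any 1 of the Sham mice or Vehicle mouse 4 (adjusted p 0.0521 to 0.0599), and Tac1 without any 1 of the Sham mice or Vehicle mouse 1 (0.0515 to 0.0640). Both also missed it in the fit of Sham and Vehicle alone (0.0714 and 0.0778). The ratio of Pdyn, which is made by direct pathway neurons too, to Penk was 0.139 to 0.143 in the 4 Sham mice and 0.264, 1.37, 0.260 and 0.293 in Vehicle. All 11 listed markers of medium spiny neurons, Penk and Tac1 among them, fell in Vehicle, with a median of -2.04, and 9 to 11 did without single mice; none was at 0 in any mouse.

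The hypothalamic precursors Avp and Oxt were at 1.31 CPM or lower in Sham. Avp reached 4.08 and 7.27 CPM in Vehicle mice 1 and 3, and Oxt 6.17 and 2.85, with edgeR adjusted p-values of 0.0534 and 0.0554. Both passed with DESeq2 (adjusted p = 0.0256 and 0.0338) and without Sham mouse 2 or Vehicle mouse 2 (0.00527 to 0.0395), and Avp also with library-size scaling (0.0483), without the filter on low counts (0.0492) and without Vehicle mouse 4 (0.0264). Summed over 8 hypothalamic markers, the level was 5.64 to 9.43 CPM in Sham, 4.86 to 21.3 in Vehicle and 4.50 to 6.74 in LJP, with Hcrt, Pmch or Ghrh at 0 in some mice of each group. Whether this moved with Nts or Crh was not tested.

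Receptors and binding proteins of the member peptides were counted next. Of 21 listed, 19 were tested, all but Npy4r and Cckar; 1 rose and 4 fell in Vehicle, beside 22.7% and 17.3% of all genes, with a median log2 fold change of -0.58. Without Vehicle mouse 2 that median was -0.32, and without single mice 2 to 9 fell, 2 without Sham mouse 3 or Vehicle mouse 1, 9 without Vehicle mouse 3 and 7 without Vehicle mouse 4. The kappa opioid receptor Oprk1, the target of the dynorphins, had the smallest p among them. It was at 11.6, 13.5, 10.6 and 9.07 CPM in Sham and at 4.49, 2.79, 8.13 and 6.47 in Vehicle, without overlap, a fall of 1.04 on the log2 scale (fold change -1.04, SE 0.26, edgeR adjusted p = 0.00795). Sort1, encoding sortilin, a sorting receptor that binds neurotensin, changed by -0.60 (adjusted p = 0.0104). Both stayed below the threshold in all alternatives. Npy1r, the Y1 receptor of neuropeptide Y, was at 19.3 to 20.2 CPM in the Sham mice and 6.67, 7.48, 16.6 and 15.4 in Vehicle (-0.79, adjusted p = 0.0249), and the neurotensin receptor Ntsr2 changed by -0.58 (0.0311). Npy1r missed the threshold without Sham mouse 1, 2 or 3 or Vehicle mouse 1 (adjusted p up to 0.0550), and Ntsr2 without Sham mouse 2, 3 or 4 or Vehicle mouse 1 or 2 (0.0628 to 0.0759). In the fit of Sham and Vehicle alone they had adjusted p-values of 0.0650 and 0.0729.

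In the opposite direction, Adcyap1r1, the PACAP receptor PAC1, rose. It gave 178, 195, 186 and 177 CPM in Sham and 282, 204, 228 and 214 in Vehicle, where every mouse was above every Sham mouse (log2 fold change 0.34, SE 0.10, edgeR adjusted p = 0.0156), while its ligand gene Adcyap1 had a fitted change of -0.40. The astrocyte markers Gfap, Vim and Aldh1l1 were higher in Vehicle as well, 3 of 7 listed, and Slc1a2 was lower, and the 7 summed to 3632 to 4103 CPM in Sham, 4387 to 7015 in Vehicle and 4521 to 6082 in LJP; the part of such cells in the Adcyap1r1 level was not tested. The somatostatin receptors Sstr1 to Sstr5 had fold changes from -0.21 to -0.81 and none passed, the nearest being Sstr2 at -0.81 (adjusted p = 0.0608), which passed with DESeq2 (0.0332), without Vehicle mouse 3 (0.0268) and without Vehicle mouse 4 (0.0170). The VIP receptors Vipr1 (-0.24, 0.0710) and Vipr2 (-0.73, 0.0791), the cholecystokinin receptor Cckbr (-0.73, 0.222), the CRH receptor Crhr1 (-0.58, 0.107) and the CRH-binding protein gene Crhbp (-0.43, 0.125) did not pass either. Without Vehicle mouse 3, Sstr4 (-0.56, adjusted p = 0.0209), Crhr1 (-0.82, 0.0260), Crhbp (-0.61, 0.0349) and the neuropeptide Y receptor Npy5r (-1.10, 0.0411) passed. Sstr4 (-0.52, 0.0405) and Crhr1 (-0.78, 0.0410) also passed without Vehicle mouse 4, and Vipr1 without Sham mouse 2 (-0.30, 0.0454). Without Vehicle mouse 2 the values of several were nearer to 0 and none of these passed: Sstr2 came to -0.54, Cckbr to -0.42, Crhr1 to -0.39, Sstr4 to -0.27 and Crhbp to -0.24.

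Among 15 genes for prohormone processing and dense-core vesicle cargo, 4 fell in Vehicle and none rose, beside 17.3% and 22.7% of all genes, with a median of -0.30; without single mice 1 to 7 fell, 1 without Sham mouse 1, 2 without Sham mouse 2, 3 or 4 and 7 without Vehicle mouse 3. One of the 4, Ptprn2, missed the threshold in the fit of Sham and Vehicle alone (adjusted p = 0.0803) and without any 1 of the Sham mice or Vehicle mouse 1 (0.0521 to 0.0738). Pcsk2, the prohormone convertase PC2, changed by -0.47 (edgeR adjusted p = 0.0111), and Pam, the enzyme that amidates peptides such as neuropeptide Y, by -0.27 (0.0157), or by -0.25 with an adjusted p of 0.0518 without Sham mouse 1 and by -0.27 with 0.0510 in the fit of Sham and Vehicle alone. Of 33 genes for GABA neuron and interneuron identity, 10 fell and 2 rose, again beside 17.3% and 22.7% of all genes, with a median of -0.37, or -0.19 without Vehicle mouse 2. Without single mice 5 to 13 fell, 5 without Sham mouse 1 or 3, 6 without Sham mouse 2 and 13 without Vehicle mouse 3. Cnr1, the cannabinoid receptor of Cck basket cells that other neurons also make, was at 174 to 220.1 CPM in Sham and 81.7 to 117.5 in Vehicle (-0.91, adjusted p = 0.000217), and Calb1, the calbindin gene, changed by -1.10 (0.00170). The enzymes and the transporter common to GABA neurons, Gad1, Gad2 and Slc32a1, had fold changes of -0.48 to -0.58 and none passed.

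Of 12 pan-neuronal genes, 5 fell in Vehicle, beside 17.3% of all genes, with a median of -0.28, or -0.18 without Vehicle mouse 2. Their summed level was 8438 to 9127 CPM in Sham and 5246 to 7836 in Vehicle. Because this sum was lower in every Vehicle mouse than in Sham, the members were also tested relative to it, with each library scaled to its summed pan-neuronal counts. On that scale, on which the median gene moved by 0.39, the members had a median log2 fold change of -0.07 and none was called (share of all genes 48.5%). Without Vehicle mouse 2 the median was -0.09 and the median gene moved by 0.25. With all mice, Sst came to -0.14 (SE 0.18; 0.05 without that mouse), Cck to 0.07 (0.15) and Adcyap1 to -0.01 (0.21). Npy stood at 0.22 (SE 0.13), and passed without Vehicle mouse 2 (0.33, edgeR adjusted p = 0.0206). Cort remained the most negative at -1.01 (SE 0.45, edgeR adjusted p = 0.0783), and passed without Vehicle mouse 4 (-1.53, adjusted p = 0.0120). Without Vehicle mouse 1, Cck (0.23, adjusted p = 0.0389) and Pdyn (-0.62, 0.0206) passed, both below the median gene, which moved by 0.39 there. Signs on this scale are set in part by the scaling, which moved the genes upward alike.

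Scaled to the summed counts of Gad1, Gad2 and Slc32a1, the members had a median of 0.32, against a shift of the median gene of 0.86, and again none was called (share of all genes 34.4%). These 3 genes summed to 987, 254.5, 752 and 657 CPM in the Vehicle mice and to 864 to 1042 in Sham, so mouse 2 weighed most on this scale. Since the scaling moved the genes upward alike, with 34% called as higher and 0.45% as lower, a sign above 0 describes no member in particular, and all 10 lay below the median gene, from Cort (-0.72) to Pvalb (0.69). Without Vehicle mouse 2 the median of the members was -0.03 and the median gene moved by 0.27. Pvalb then came to 0.03, Cck to 0.15, Sst to 0.11 and Adcyap1 to -0.13, and none was called. Without Vehicle mouse 1, Cck, Npy, Pvalb and Vip passed with values from 0.72 to 0.97, still below the median gene at 1.07.

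**Figure D4:**
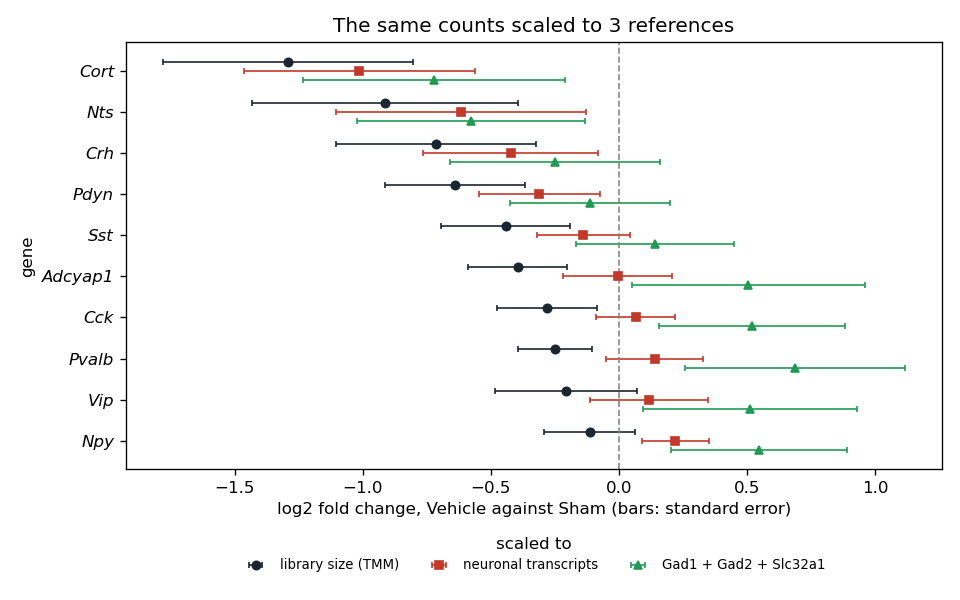
Fitted log2 fold change of Vehicle against Sham for the 10 genes with library-size scaling (TMM), scaling to pan-neuronal transcripts, and scaling to Gad1, Gad2 and Slc32a1; bars are SEs. Every gene moves to the right from the first scaling to the last, as Pvalb does from -0.25 to 0.69; the median of all genes, which is not drawn, moves from 0.00 to 0.86.

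The comparison of LJP with Vehicle asked whether the treatment altered the levels after I/R. It called 0.0228% of the genes tested, 4 genes that were all lower in LJP, and no member. At an unadjusted p below 0.05 there were 2 members, Vip and Cort (29.7% of all genes), and DESeq2 called 1, Vip, and 13.2% of all genes it tested. The fold changes of 9 members were positive and that of Pvalb was at 0.00, with a median of 0.30 beside 0.00 over all genes, and 0.18 without Vehicle mouse 2. This comparison shares its Vehicle mice with the one above, so the opposite signs are not separate evidence. No member separated the groups, where 11.7% of all genes did.

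In the 4 LJP mice Vip was at 18.03, 20.4, 24.9 and 24.0 CPM. LJP mouse 1 lay between the Vehicle mice with 17.4 and 18.4 CPM, and the other 3 were above all Vehicle mice. LJP against Vehicle gave a log2 fold change of 0.79 (SE 0.28, edgeR adjusted p = 0.0973). It passed with DESeq2 (adjusted p = 0.0430), without Vehicle mouse 3 (1.03, 0.0251) and without Vehicle mouse 4 (0.98, 0.0479), the Vehicle mice with most Vip. These fits called 13.2%, 21.6% and 11.7% of all genes, beside 0.0228% in the main fit. The adjusted p of Vip ran up to 0.226 over the alternatives.

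Cort was at 4.36, 2.20, 3.37 and 2.56 CPM in LJP, each above Vehicle mice 1 to 3. The log2 fold change was 1.17 (SE 0.49, edgeR adjusted p = 0.140), 1.74 with an adjusted p of 0.0395 without Vehicle mouse 4, and 0.83 with 0.245 without Vehicle mouse 2. The fit without Vehicle mouse 4 called 11.7% of all genes. Sst, at 184, 169, 164 and 155.5 CPM, changed by 0.29 (SE 0.25, adjusted p = 0.434), and by 0.04 without Vehicle mouse 2. Pdyn (52.5 to 69.2 CPM) changed by 0.42 and Crh (4.50 to 6.13 CPM) by 0.53, and these became 0.17 and 0.19 without that mouse. Cck, at 225.5 to 256 CPM, changed by 0.31, and by 0.14 without Vehicle mouse 1. Adcyap1 (0.22, and 0.07 without Vehicle mouse 1), Npy (0.14) and Nts (0.14) were nearer to 0, and Npy and Nts turned negative without Vehicle mouse 2 (-0.05 and -0.25). Relative to pan-neuronal transcripts the members had a median of 0.10 (0.04 without Vehicle mouse 2), with the median gene at -0.27, and none was called.

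Of the receptors, precursors, processing genes and interneuron genes listed above, none passed between LJP and Vehicle in the edgeR fit to 12 mice. DESeq2 called Avp (-4.17, adjusted p = 0.0025), Oxt (-4.24, 0.00355), Tac2 (-0.84, 0.0291) and Calb1 (0.65, 0.0246). Avp and Oxt also passed without the filter on low counts (adjusted p = 0.0449 and 0.0450), and Avp, Oxt, Calb1 and Cnr1 passed without Vehicle mouse 3 and without Vehicle mouse 4 (0.0177 to 0.0484). Of the genes named here, Reln (0.66, 0.0399), Pcsk2 (0.43, 0.0387) and Ptprn2 (0.49, 0.0440) also passed without Vehicle mouse 3. That fit called 6 of the 33 interneuron genes as higher, beside 8.46% of all genes. The receptors had a median log2 fold change of 0.39 over 19 genes, and 0.18 without Vehicle mouse 2. Crhbp (0.60, edgeR adjusted p = 0.101), Sort1 (0.43, 0.105) and Vipr2 (0.85, 0.106) had the smallest p-values, and of these Sort1 was higher in every LJP mouse than in every Vehicle mouse. Without Vehicle mouse 3, Sort1 (0.55, adjusted p = 0.0315), Crhbp (0.78, 0.0276), Npy1r (0.77, 0.0407) and Oprk1 (0.93, 0.0246) passed, and without Vehicle mouse 4 Sort1 did (0.56, 0.0423).

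**Figure D5:**
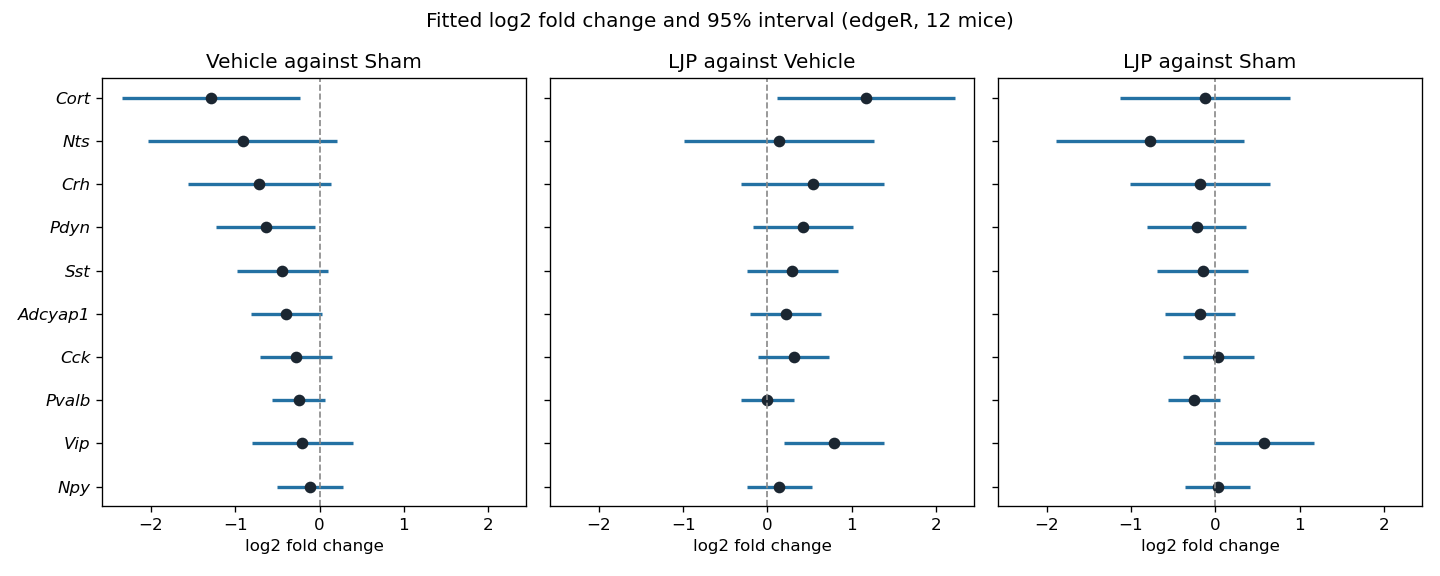
Fitted log2 fold change (point) and 95% interval (line) of the 10 genes in the 3 comparisons, from the edgeR fit to 12 mice. All points lie left of 0 in Vehicle against Sham, and the intervals of Pdyn and Cort there, and of Vip and Cort in LJP against Vehicle, exclude 0 before adjustment.

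LJP was last compared with Sham. The test called 4.75% of the genes, 3.85% as higher and 0.9% as lower in LJP, and none of the members, with none at an unadjusted p below 0.05 (18.8% of all genes) and none with DESeq2 (7.55%). The median over the members was -0.16, with 3 fold changes above 0 and 7 below it, and the median over all genes was 0.00. The coefficient of variation of the members in LJP ran from 6.35% to 30.7%, below that in Vehicle for each gene.

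Vip was the 1 member in which these groups did not overlap: all 4 LJP mice were above the highest Sham mouse (17.2 CPM), where 12.9% of all genes were higher without overlap. The means were 21.8 ± 3.20 and 14.6 ± 2.04 CPM (SD, n = 4 each). The edgeR log2 fold change was 0.58 (SE 0.27, adjusted p = 0.278). It passed when only the Sham and LJP mice were fitted (0.57, SE 0.12, adjusted p = 0.00477), a fit that called 23.8% of all genes, and in no other alternative (adjusted p up to 0.519). The ratio of Cck to Vip was 9.06 to 12.7 in LJP, below the 13.9 to 17.0 of Sham, as Cck itself was at the Sham level (234 ± 14.9 against 229 ± 18.8 CPM). Vip was also above the Sham range in Vehicle mice 3 and 4.

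Nts was at 6.59, 3.99, 3.43 and 4.63 CPM in LJP, and only LJP mouse 1 reached into the Sham range. The log2 fold change of -0.78 (SE 0.52, edgeR adjusted p = 0.461) passed without Vehicle mouse 2 (-0.78, SE 0.21, adjusted p = 0.0305) and in the fit of Sham and LJP alone (adjusted p = 0.0107). That fit also called Pvalb (27.4, 32.5, 32.7 and 31.4 CPM in LJP; -0.26, adjusted p = 0.0448). Nts of LJP and Vehicle differed by 0.14 on the log2 scale (95% interval -0.99 to 1.26). Penk was at 77.1%, 55.4%, 39.3% and 55.9% of its Sham mean in the 4 LJP mice. All 11 medium spiny neuron markers had negative fold changes against Sham, with a median of -1.06. Of these, 2 were called as lower, beside 0.9% of all genes. The ratio of Pdyn to Penk in LJP, 0.174 to 0.258, lay above all Sham mice and below all Vehicle mice.

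In the remaining members the group means differed less. Sst (168 ± 12.2 against 186 ± 9.002 CPM), Pdyn (62.8 ± 7.27 against 73.2 ± 4.73), Crh (5.19 ± 0.735 against 5.88 ± 0.836), Adcyap1 (10.2 ± 1.74 against 11.5 ± 1.94) and Cort (3.12 ± 0.959 against 3.41 ± 0.641) had negative fold changes, from -0.13 to -0.22. Npy (45.6 ± 3.03 against 44.7 ± 2.90 CPM) was at 0.03. For Sst the 95% interval of the log2 difference ran from -0.69 to 0.39 and for Cort from -1.13 to 0.88, so that changes of such sizes cannot be told from none here. By mouse, Sst and Pdyn were below the Sham range in LJP mice 2, 3 and 4. Over all 10 members, LJP mice 1 to 4 were below that range in 1, 6, 4 and 5, where 28.5% to 34% of all tested genes were, and above it in 3, 1, 1 and 2, where 29.6% to 32.8% were.

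Finally, the tested genes with the most similar profile over the 12 mice were named for each member, by Pearson correlation of log2 CPM, as a description without a test. Cck was most like Stmn1 (r = 0.986, and 0.982 without Vehicle mouse 2) and Vip most like Rap2a (0.951 and 0.931). Pdyn came closest to Plppr1 (0.985 and 0.935), Cort to Txndc16 (0.975 and 0.943), Adcyap1 to Nme7 (0.885 and 0.891) and Pvalb to Adhfe1 (0.936 and 0.952). The likeness of Nts to Zim3 fell from 0.987 to 0.916, of Sst to Diras1 from 0.985 to 0.870, of Crh to the dopamine receptor gene Drd3 from 0.987 to 0.83, and of Npy to Celf6 from 0.954 to 0.545 once that mouse was left out. These mice share their group differences, so that many genes follow such a profile.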

How the data were processed

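The authors deposited raw read counts per gene and mouse, without normalization; the submitters' notes name featureCounts, DESeq2 and the builds mm10 and GRCm39, and the positions in the table are those of GRCm38 for 39730 of 39756 genes. The aligner, the strand setting and the handling of shared reads are not given in the sources used here. Here edgeR 4.0.16 was run under R 4.3.3 (filterByExpr, which kept 17558 genes, TMM, quasi-likelihood test, 1 coefficient per group, all 12 mice) and Benjamini-Hochberg adjustment over all genes tested. Log2 CPM used a prior count of 2. Alternatives were DESeq2 1.42.0, RLE factors, library size only, no filter, fits of 2 groups, a replicate block, leaving out each mouse, and the thresholds of the study's methods (absolute log2 fold change over 0.58, p below 0.01). The code was tested on simulated data. No mice were duplicates (chi-square per degree of freedom at least 2.56). Separate animals are taken from the labels.

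The 10 genes and the gene lists were chosen with earlier results of these data known, and no p-value was adjusted over a list alone. Of each list, the 3 genes with the smallest p in the first 2 comparisons could be named, plus receptors of the members; others are named only where 5 or fewer passed. Plots used matplotlib 3.10.9. Promoter sequences are from RefSeq; protein sequences were not used here. A further interneuron-list result is not reported here.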

Additional observations from a re-analysis of the deposited data

Results flagged for a closer look

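In each member and group of 4 mice, the highest or lowest mouse was compared with its nearest neighbour. Cck in LJP mouse 4, the highest of its group at 256 CPM beside 225.5 to 228 in the other 3, stood apart: its gap took 0.913 of the group's range and passed the 95% critical value of Dixon's test. This was 1 of 30 groups checked, where chance gives 1.5.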

How the results depend on the processing

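Of the named genes, 2418 alternative values kept both direction and call, 103 newly passed, 42 no longer passed and 26 changed sign. These values include fits that left out a mouse of the group not compared, which moved fold changes little. No member was called in the main fits, so that for members keeping the call meant staying above the threshold. The count of members called, 0 in each comparison, went to 1 with DESeq2 in Vehicle against Sham (Cort) and in LJP against Vehicle (Vip), and to 3 in LJP against Sham when only these 2 groups were fitted (Vip, Nts and Pvalb). Leaving out single mice gave 0 to 2 members in Vehicle against Sham, 0 to 2 in LJP against Vehicle and 0 to 1 in LJP against Sham; relative to pan-neuronal transcripts it gave 0 to 2 in each of the first 2 comparisons, and relative to Gad1, Gad2 and Slc32a1 0 to 4 in Vehicle against Sham.

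Genes called in Vehicle against Sham (7014) came to 5285 to 8200 without single mice and to 3807 at the study's thresholds. In LJP against Vehicle (4) there were 3 to 3857 without single mice (3857 without Vehicle mouse 3, 2095 without Vehicle mouse 4), 2307 with DESeq2, 593 without the filter, 2 with only 2 groups and 1223 at the study's thresholds. In LJP against Sham (834) there were 393 to 2357 without single mice (2357 without Vehicle mouse 2), 1454 with DESeq2 and 4043 with only 2 groups. Replicate numbers do not pair the mice (correlations of same-numbered mice between -0.32 and 0.11). With the replicate block 6110, 2 and 464 genes were called in the 3 comparisons and 0 members in each; Nmb (adjusted p = 0.0562) lost and Sstr2 (-0.92, 0.0457) gained a call in Vehicle against Sham.

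Values near 0 changed sign. In LJP against Vehicle, Pvalb (-0.0036) came to 0.0056 without the filter, 0.0174 with the replicate block and -0.15 to 0.0814 without single mice; Npy ranged from -0.05 to 0.27, Nts from -0.25 to 0.51, Sstr5 from -0.0815 to 1.37, Npy2r from -0.47 to 0.30, Npy5r from -0.21 to 0.59, Adcyap1r1 from -0.14 to 0.0230 and Crhr2 from -0.0129 to 0.52. In Vehicle against Sham, Npy ranged from -0.24 to 0.0695 and Npy2r from -0.33 to 0.44, with -0.0033 under the block. In LJP against Sham, Npy ranged from -0.0194 to 0.0571, Cck from -0.0217 to 0.0680 and Cort from -0.33 to 0.0097. The causes were not tested. Counts were low for Cort (8 to 96 a mouse), Sstr5 (1 to 22) and Vipr2 (8 to 27), and each group had 4 mice.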
